A study of Mus musculus with 6 samples.

Results

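The 10 genes described here belong to the G1 cell cycle machinery and were measured in embryonic mouse hearts that lack Tfam in the cardiac lineage. The genes were taken by symbol from a fixed list, and all 10 were found among the 23284 genes listed in every library. They are the Cip/Kip inhibitors of cyclin-dependent kinases (CDKs) Cdkn1a, Cdkn1b and Cdkn1c, the INK4 inhibitors Cdkn2c and Cdkn2d, the D cyclins Ccnd1, Ccnd2 and Ccnd3, and the kinases Cdk4 and Cdk6.

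The study profiled polyadenylated RNA of whole C57BL/6 hearts at E13.5 (days of gestation) with 6 libraries, each made from 1 pool of 5 frozen hearts. The 3 Tfam KO pools were Tfam fl/fl; Nkx2.5 IRES-Cre/+ and the 3 Control pools were Tfam fl/+; Nkx2.5 IRES-Cre/+. Tfam encodes a factor that packages and transcribes mitochondrial DNA. Both groups thus carried Cre in 1 copy of the Nkx2-5 locus, which directs recombination to the cardiac lineage, and the controls kept 1 intact Tfam allele. Cells of the heart outside the Cre lineage are not recombined in either group and were part of every pool.

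D cyclins bind CDK4 and CDK6 and direct them to the retinoblastoma protein, whose phosphorylation releases E2F factors and lets a cell enter S phase. INK4 proteins block CDK4 and CDK6 alone. Cip/Kip proteins bind many cyclin and CDK pairs, inhibiting those of CDK2 while also helping D cyclins and their kinases assemble. Mouse embryos lacking all 3 D cyclins die with heart defects, among others, and Cdkn1c (p57) is an imprinted gene tied to cell cycle exit in developing tissues.

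Values are FPKM (reads corrected for the length of the transcript and the depth of the library), divided by a size factor that puts the libraries on a common scale. The libraries held 12370092 to 18078620 reads. The ribosomal RNA precursor Rn45s took 14.95% to 32.5% of them, with the lowest share in Tfam KO replicate 3. Size factors ran from 0.812 to 1.33. As deposited, the median of the 10807 tested genes was 0.28 higher in the KO group on the log2 scale, against 0.00 with size factors. Differences were tested with limma across all tested genes, and "rose" and "fell" are kept for genes with an adjusted p under 0.05 both with size factors and as deposited. Tfam itself measured 3.41, 5.17 and 4.69 FPKM in KO replicates 1 to 3, against 5.71, 6.43 and 6.60 FPKM in Control replicates 1 to 3. With size factors the groups did not overlap, as for 24.0% of all tested genes, but the log2 fold change of -0.43 did not pass (limma adjusted p = 0.14). As deposited the groups overlapped, with 3.97, 4.77 and 6.22 FPKM in KO replicates 1 to 3 and 4.64, 5.55 and 6.62 FPKM in Control replicates 1 to 3. The log2 fold change was then -0.15 (limma adjusted p = 0.651).

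Regulatory sequence is shown for Cdkn1a, which has 2 starts in RefSeq, for its paralog Cdkn1b, and for Cdk4. Each run holds the 250 bases before a start, 5′ to 3′ on the gene's strand, from RefSeq on GRCm38.p6, and capitals mark matches to the motifs listed after it. The windows are chr17:29090729-29090978 and chr17:29093519-29093768 for Cdkn1a, chr6:134920151-134920400 for Cdkn1b and chr10:127063285-127063534 for Cdk4, all on the plus strand. The upstream Cdkn1a start lies 2790 bases before the downstream one.
Cdkn1a, upstream start: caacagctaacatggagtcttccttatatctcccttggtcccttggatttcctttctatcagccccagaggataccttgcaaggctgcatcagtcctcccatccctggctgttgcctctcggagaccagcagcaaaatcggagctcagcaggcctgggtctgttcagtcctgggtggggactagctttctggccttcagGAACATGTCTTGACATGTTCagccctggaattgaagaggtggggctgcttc
Cdkn1a, downstream start: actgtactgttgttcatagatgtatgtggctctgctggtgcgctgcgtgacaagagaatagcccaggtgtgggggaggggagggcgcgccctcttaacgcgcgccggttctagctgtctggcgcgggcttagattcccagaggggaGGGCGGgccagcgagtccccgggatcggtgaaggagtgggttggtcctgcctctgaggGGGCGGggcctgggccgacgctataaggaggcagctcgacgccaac
Cdkn1b: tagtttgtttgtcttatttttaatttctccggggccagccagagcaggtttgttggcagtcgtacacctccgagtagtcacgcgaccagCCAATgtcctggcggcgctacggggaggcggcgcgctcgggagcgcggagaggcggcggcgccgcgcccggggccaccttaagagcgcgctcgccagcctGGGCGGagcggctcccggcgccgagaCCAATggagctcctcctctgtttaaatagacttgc
Cdk4: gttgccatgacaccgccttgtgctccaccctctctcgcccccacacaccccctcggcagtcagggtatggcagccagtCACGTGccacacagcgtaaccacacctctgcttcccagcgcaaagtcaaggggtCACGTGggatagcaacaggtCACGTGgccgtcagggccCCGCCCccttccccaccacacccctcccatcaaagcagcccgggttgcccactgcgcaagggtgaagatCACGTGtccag

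Both strands were searched for the TATA box TATAAA, the GC box GGGCGG, the E-box CACGTG, the CCAAT box CCAAT, the CHOP-ATF4 element TGATGCAA, an E2F site GCGGGAAA, the cyclic AMP response element TGACGTCA and the 20-base p53 element with at most 1 mismatch. The p53 element stood 51 bases before the upstream Cdkn1a start, with 1 mismatch, and was found in 19 of 32851 windows of this length (0.0578%). The downstream Cdkn1a window held 2 GC boxes, at 104 and 46 bases before the start, a motif present in 32.7% of windows. The Cdkn1b window held CCAAT boxes at 161 and 35 bases and a GC box at 61 bases before its start, and 33.8% of windows held a CCAAT box. Cdk4 held E-boxes at 172, 118, 98 and 11 bases before its start and a GC box at 80 bases on the opposite strand, and 6.02% of windows held an E-box. No matches overlapped in these 4 windows. The TATA box, the CHOP-ATF4 element, the E2F site and the cyclic AMP response element, found in 12.4%, 0.791%, 0.895% and 1.55% of windows, had no match in these 4, which says only that those letters were not there. The tables give 1 value per gene, so the reads of the 2 Cdkn1a starts cannot be told apart.

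Among the 10 genes, 1 inhibitor and 1 cyclin rose and 1 inhibitor fell in Tfam KO hearts. Cdkn1a and Ccnd2 were 3.37 and 1.57 times as high as in controls by the ratio of group means, and Cdkn1c was 2.05-fold lower. In all, 9 of the 10 passed the filter of a mean of 1 FPKM, and 3 of these 9 were called, 2 higher and 1 lower, with size factors, as deposited and with limma-voom on recovered reads. Over all tested genes 1.99% were called higher and 2.6% lower with size factors, 6.21% higher and 1.16% lower as deposited, and 2.57% higher and 4.26% lower (6.83% in all) with limma-voom. Of all tested genes 2.94% passed in one direction both with size factors and as deposited. The median log2 fold change of the 9 was 0.01, beside 0.00 for all tested genes.

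**Figure D1:**
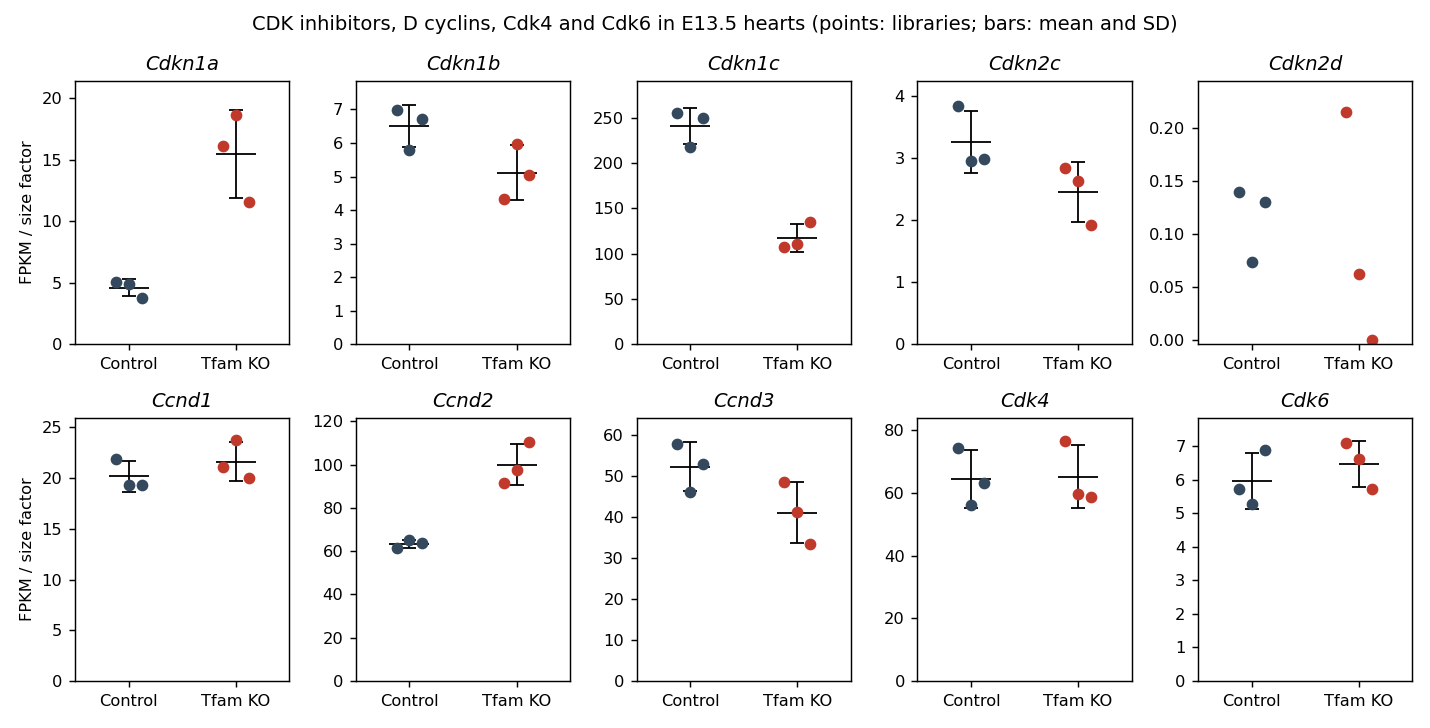
Size-factor scaled FPKM of the 10 genes in each library (points), with group means and SD (bars, n = 3, left out for Cdkn2d, which had at most 4 reads in a library). The KO points lie above all controls for Cdkn1a and Ccnd2 and below them for Cdkn1c and Cdkn2c.

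Cdkn1a encodes p21, the Cip/Kip inhibitor best known as a target of p53 and of stress signalling, and the gene lies at chr17:29090979-29100722 (GRCm38.p6). It measured 16.1, 18.7 and 11.6 FPKM in KO replicates 1 to 3, against 5.07, 4.89 and 3.79 FPKM in Control replicates 1 to 3. These values stand for 456, 460 and 497 KO reads and 111, 101 and 133 control reads. Every KO library lay well above every control, and Tfam KO replicate 3 was the lowest of its group. Cdkn1a rose by a log2 fold change of 1.54 (SE 0.17, limma adjusted p = 0.000665), and by 1.84 as deposited (limma adjusted p = 2.3e-13). The deposited-scale p-value rests on a variance shared over genes, not on the spread of Cdkn1a between pools. The call was kept without any one library, with limma adjusted p between 0.000502 and 0.00472.

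Cdkn1c encodes p57, the imprinted Cip/Kip inhibitor expressed mainly from the maternal allele. It was the most abundant of the 10 genes in both groups and higher than 98.7% of all tested genes. It measured 107, 110.2 and 135 FPKM in KO replicates 1 to 3, against 256, 218 and 249.5 FPKM in Control replicates 1 to 3. With size factors the highest KO library stayed below the lowest control by a wide gap. As deposited the gap was narrow, with 180 FPKM in Tfam KO replicate 3 and 188 FPKM in Control replicate 2. Cdkn1c fell by 1.03 on the log2 scale (SE 0.14, limma adjusted p = 0.00194) and by 0.70 as deposited (limma adjusted p = 0.0314), where the median gene was 0.28 higher. It was called without any one library, with limma adjusted p between 0.00216 and 0.0152. These were whole hearts, so fewer cells of a type that expresses a gene and less RNA per cell cannot be told apart, here and for the other genes.

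Cdkn1b encodes p27, the third Cip/Kip inhibitor, a protein controlled largely by its turnover. It measured 4.32, 5.98 and 5.05 FPKM in KO replicates 1 to 3, against 6.99, 5.80 and 6.72 FPKM in Control replicates 1 to 3. The groups overlapped, with Tfam KO replicate 2 above Control replicate 2. The log2 fold change of -0.30 (95% interval -0.61 to 0.01) did not pass (limma adjusted p = 0.266), and as deposited it was -0.01.

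The make-up of the Cip/Kip transcripts, which does not depend on the scale of a library, separated the groups. Cdkn1c made up 95.5%, 95.3% and 96.0% of the summed Cip/Kip FPKM in the controls, against 84.0%, 81.7% and 89.1% in KO hearts. Cdkn1a made up 1.83% ± 0.344 (SD, n = 3) of it in controls and 11.4% ± 3.30 in KO hearts, and Cdkn1b 2.58% ± 0.0372 and 3.71% ± 0.625. None of the 3 shares overlapped between groups. The 3 shares add up to the whole, so they are not independent: the share of Cdkn1b was higher in KO hearts while its own mean was lower there, 5.12 against 6.50 FPKM. Each had an exact two-sided permutation p = 0.1, the smallest that 3 against 3 libraries can give, and 0.15 after Benjamini-Hochberg adjustment over the 9 shares and ratios compared. In size-factor FPKM the sum of the Cip/Kip genes was 252 ± 20.6 in controls and 138 ± 12.5 in KO hearts. Cdkn1a and Cdkn1c thus moved in opposite directions within 1 family.

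The INK4 genes were the least abundant of the set. Cdkn2c, which encodes p18, measured 2.85, 2.63 and 1.92 FPKM in KO replicates 1 to 3, against 3.84, 2.96 and 2.99 FPKM in Control replicates 1 to 3, from 35 to 60 reads a library. All KO libraries were lower than all controls with size factors, but not as deposited, and the log2 fold change of -0.30 (95% interval -0.64 to 0.03) did not pass (limma adjusted p = 0.307). Cdkn2d, which encodes p19, had 4, 1 and 0 reads in KO replicates 1 to 3, against 2, 1 and 3 in the controls. Its mean was below the filter, so no test was made. Its 0 in Tfam KO replicate 3 allows up to 0.141 FPKM on the deposited scale (3 reads, counting error only), so no difference in Cdkn2d was detectable at this depth.

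With Cdkn2c, 4 of the 9 tested genes had groups that did not overlap with size factors, beside 24.0% of all tested genes. As deposited the 4 were Cdkn1a, Cdkn1c, Ccnd1 and Ccnd2, beside 28.0% of all tested genes, 25.6% with the KO libraries above and 2.34% below.

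**Figure D2:**
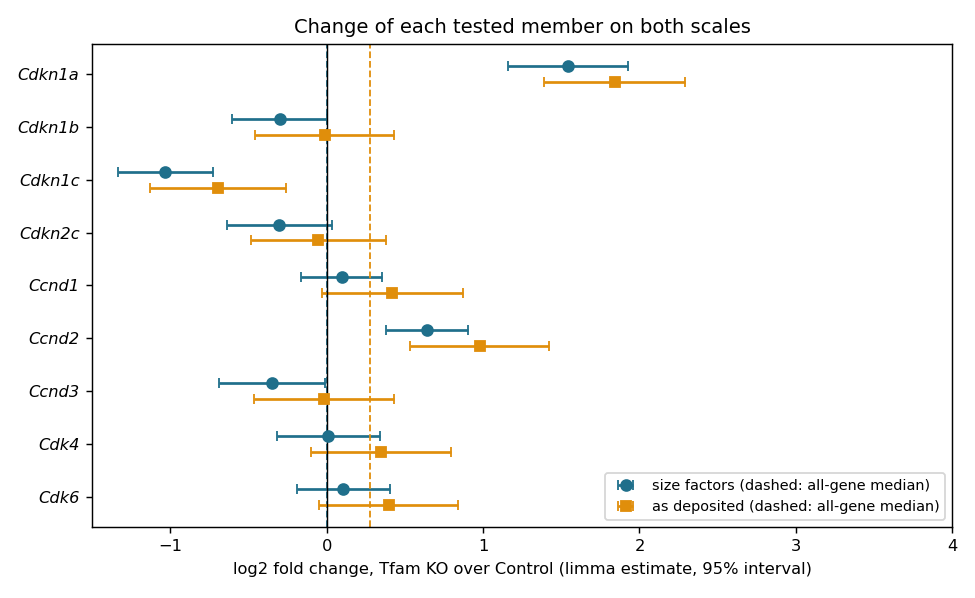
Limma log2 fold change (Tfam KO over Control, horizontal axis) of the 9 tested genes with 95% intervals, with size factors (circles) and as deposited (squares), and dashed lines at the median of all tested genes on each scale. On both scales the intervals of Cdkn1a, Cdkn1c and Ccnd2 lie clear of 0, and the deposited values sit to the right, as their all-gene median of 0.28 does.

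Of the D cyclins, which activate CDK4 and CDK6, Ccnd2 (chr6:127125162-127152188, GRCm38.p6) was called and Ccnd1 and Ccnd3 were not. Ccnd2 measured 91.6, 97.7 and 110.3 FPKM in KO replicates 1 to 3, against 61.5, 65.1 and 63.8 FPKM in Control replicates 1 to 3, from 4009 to 14097 reads a library. The controls lay close together and every KO library was above them. Ccnd2 rose by a log2 fold change of 0.64 (SE 0.12, limma adjusted p = 0.0115), and by 0.98 as deposited (limma adjusted p = 0.000781). Without Control replicate 3 the log2 fold change was 0.65 and the call was lost (limma adjusted p = 0.0616), and without any other one library it was kept.

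Ccnd1, which many growth signals induce, measured 21.1, 23.8 and 20.01 FPKM in KO replicates 1 to 3, against 21.9, 19.3 and 19.3 FPKM in Control replicates 1 to 3. The groups overlapped, and the log2 fold change was 0.09 (95% interval -0.17 to 0.36, limma adjusted p = 0.733). As deposited all KO libraries were above all controls, with a log2 fold change of 0.42 that did not pass (limma adjusted p = 0.223).

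Ccnd3, the D cyclin best known from blood cell development, measured 48.4, 41.2 and 33.5 FPKM in KO replicates 1 to 3, against 57.8, 45.9 and 52.9 FPKM in Control replicates 1 to 3. Tfam KO replicate 1 lay among the controls and the other KO libraries below them. The log2 fold change was -0.35 (95% interval -0.69 to -0.01), which did not pass over all tested genes (limma adjusted p = 0.24), and -0.02 as deposited. A pseudogene, Ccnd3-ps, is annotated in GENCODE vM21, and reads from it may have been counted with Ccnd3.

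Within the D cyclins, Ccnd2 took a larger share and Ccnd3 a smaller one in KO hearts. Ccnd2 made up 43.6%, 49.9% and 46.9% of the summed D cyclin FPKM in the controls, against 56.9%, 60.1% and 67.3% in KO hearts. Ccnd3 made up 38.4% ± 2.87 (SD, n = 3) in controls and 25.3% ± 4.80 in KO hearts. Neither share overlapped between groups (exact two-sided permutation p = 0.1 each, 0.15 adjusted over the 9). The share of Ccnd1 was 14.8% ± 0.665 in controls and 13.3% ± 1.21 in KO hearts, and its groups overlapped (exact permutation p = 0.2, adjusted 0.225). In sum the D cyclins stood at 136 ± 5.45 size-factor FPKM in controls and 163 ± 1.30 in KO hearts.

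**Figure D3:**
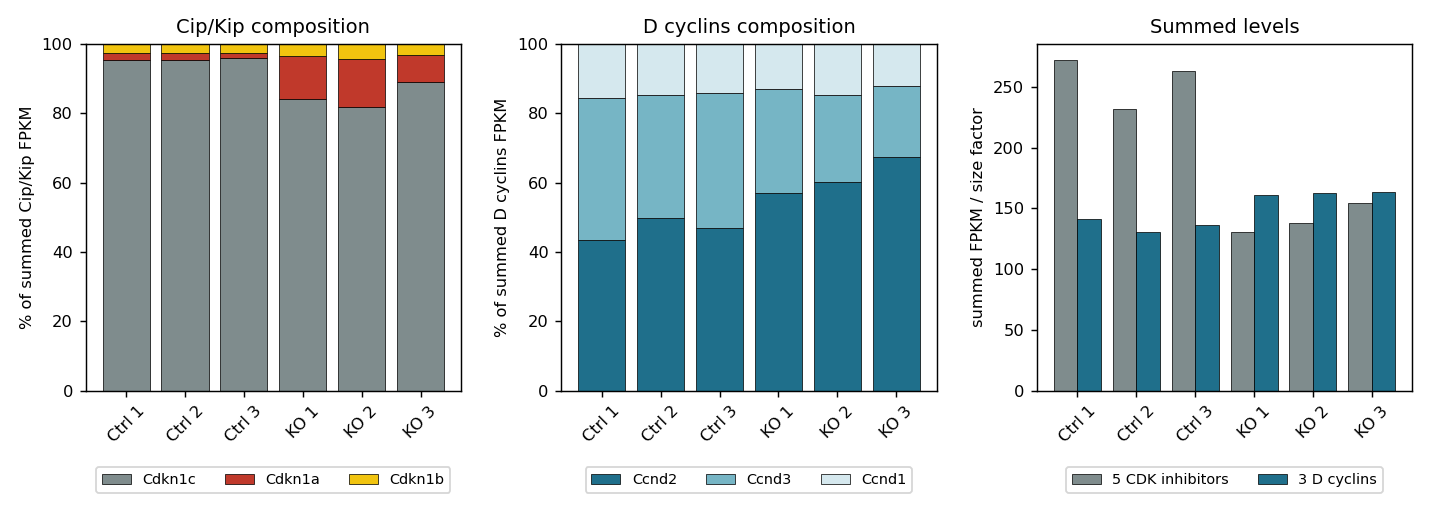
Left and middle, the share of each gene in the summed FPKM of the Cip/Kip genes and of the D cyclins, in percent, for each library; right, the summed size-factor FPKM of the 5 CDK inhibitors and the 3 D cyclins. The inhibitors exceed the cyclins in the 3 controls (232 to 272 against 130 to 141) and are below them in the 3 KO libraries (131 to 154 against 161 to 164).

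The kinases that D cyclins activate did not differ detectably. Cdk4 measured 76.7, 59.8 and 58.8 FPKM in KO replicates 1 to 3, against 74.4, 56.0 and 63.2 FPKM in Control replicates 1 to 3, and the groups overlapped. Its log2 fold change was 0.01 (95% interval -0.32 to 0.34, limma adjusted p = 0.976), and it was below 0 without Tfam KO replicate 1 or Control replicate 2. Cdk6 measured 7.09, 6.62 and 5.74 FPKM in KO replicates 1 to 3, against 5.73, 5.27 and 6.90 FPKM in Control replicates 1 to 3, also overlapping. Its log2 fold change was 0.11 (95% interval -0.19 to 0.40, limma adjusted p = 0.736). Per unit of transcript length, Cdk4 was about an order of magnitude above Cdk6 in both groups, with a log2 ratio of Cdk6 to Cdk4 of -3.43 ± 0.252 in controls and -3.32 ± 0.133 in KO hearts (exact two-sided permutation p = 0.6, also 0.6 adjusted).

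Inhibitor transcripts outweighed D cyclin transcripts in every control and in no KO library. The log2 ratio of the summed FPKM of the 5 inhibitors to that of the 3 D cyclins was 0.94, 0.83 and 0.95 in the controls, against -0.30, -0.24 and -0.09 in KO hearts. Its difference of -1.12 had an exact two-sided permutation p = 0.1 (0.15 adjusted), with no overlap. This sum was made up mostly of Cdkn1c. With Cdkn1c left out, a choice made after its values were seen, the log2 ratio was -3.23 ± 0.0903 in controls and -2.83 ± 0.288 in KO hearts, and the groups overlapped (exact permutation p = 0.2, adjusted 0.225). The sign of the difference was thus set by Cdkn1c. Transcript sums say nothing of protein levels, which were not measured.

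By level, the controls ran from Cdkn1c at 241 FPKM through Cdk4 (64.5), Ccnd2 (63.4), Ccnd3 (52.2), Ccnd1 (20.2), Cdkn1b (6.50), Cdk6 (5.97), Cdkn1a (4.58) and Cdkn2c (3.26) to Cdkn2d (0.114). The ranges of neighbours overlapped for Cdk4 and Ccnd2, for Cdkn1b and Cdk6, and for Cdkn1a and Cdkn2c. In KO hearts Cdkn1a, at 15.5 FPKM, stood in place 6, above Cdk6 and Cdkn1b, where it had been in place 8. Ccnd2, at 99.9 FPKM, stood above Cdk4 without overlap and its range overlapped that of Cdkn1c.

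Exons of genes on the opposite strand overlap Cdk4 (Tspan31, 641 bases), Ccnd3 (Bysl, 361 bases) and Ccnd2 (9330179D12Rik, 368 bases), all listed in the tables. Opposite-strand genes not listed there under their GENCODE vM21 symbols overlap Cdkn1a, Cdkn1c, Ccnd1, Ccnd2 (Gm43126, 372 bases) and Cdk6. The strand setting of the counting was not given in the sources used here, so reads of such pairs may not have been separated.

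The genes around this machinery were described through 8 lists of 144 genes in all, of which 132 were tested. With size factors 2 were called higher and 5 lower, 5.30% of those tested, close to the 4.59% of all tested genes. As deposited 3 were higher and 0 lower, beside 7.37% of all tested genes. Atf4 and Ddit3 passed on both scales. Other genes named from these and the cell type lists, apart from Nppa and the most abundant gene of each cell type list, were chosen after their values were seen.

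The RB and E2F genes, which carry the signal from CDK4 and CDK6 to S phase, held no called gene. Of 19 tested, 0 passed in limma on either scale or in limma-voom, and the unadjusted p with size factors was under 0.05 for 0 higher and 1 lower. Of all tested genes 19.5% had such an unadjusted p in either direction, the share to set beside the unadjusted counts of each list. Their median log2 fold change was -0.02. Rb1 averaged 3.18 ± 0.641 FPKM over the controls, against 3.26 ± 0.797 FPKM over the KO pools, with a 95% interval of its log2 fold change of -0.37 to 0.41. Of 15 genes of the CDK2 and CDK1 complexes, which act after the D cyclins, 0 passed in limma on either scale. At an unadjusted p under 0.05 1 was higher and 4 lower, limma-voom called 0 higher and 1 lower, and their median was -0.09. Ccna2, the S phase cyclin, averaged 40.1 ± 3.68 FPKM over the controls, against 28.3 ± 2.60 FPKM over the KO pools. With size factors Ccna2 narrowly missed the threshold (log2 fold change -0.49, limma adjusted p = 0.0509). As deposited its log2 fold change was -0.16 (limma adjusted p = 0.629), while limma-voom called it lower (limma-voom adjusted p = 0.0264).

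Among 18 genes for the turnover of CDK inhibitors and D cyclins, such as Skp2, which marks p27 for degradation, 0 passed in limma on either scale or in limma-voom (unadjusted p under 0.05 for 1 higher and 2 lower), with a median of -0.04. Of the other inhibitor genes, 0 of 5 tested passed in limma on either scale or in limma-voom, nor at an unadjusted p under 0.05. The INK4 genes Cdkn2a and Cdkn2b did not reach 1 FPKM in any library and were not tested. Cdkn2a was listed at 0 in 5 of 6 libraries.

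The transcription regulators of Cdkn1a and the D cyclins held the called genes of these lists that passed on both scales. Ddit3, the stress factor CHOP, measured 49.7, 41.4 and 35.4 FPKM in KO replicates 1 to 3, against 7.11, 6.13 and 7.03 FPKM in Control replicates 1 to 3. It rose by a log2 fold change of 2.47 (limma adjusted p = 7.13e-06), and Atf4, the effector of the integrated stress response, by 1.795 (limma adjusted p = 8.16e-05). As deposited, they rose by 2.78 and 2.13. Trp53, which encodes p53, averaged 17.6 ± 2.56 FPKM over the controls, against 18.3 ± 1.82 FPKM over the KO pools (log2 fold change 0.06, 95% interval -0.24 to 0.37). Mdm2, a p53 target that limits p53, averaged 15.9 ± 2.63 FPKM over the controls, against 17.8 ± 1.93 FPKM over the KO pools (log2 fold change 0.15, limma adjusted p = 0.621). Mycn and Jun, which can act on cell cycle genes, were lower with size factors and with limma-voom but not as deposited (log2 fold changes -0.68 and -0.69 with size factors, limma adjusted p = 0.0461 and 0.0388). Myc was higher as deposited only (0.75, limma adjusted p = 0.0198, against 0.47 and 0.0907 with size factors). Of the 25 tested, 2 were higher and 2 lower with size factors, 3 higher and 0 lower as deposited, and their median was 0.03 with size factors.

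**Figure D4:**
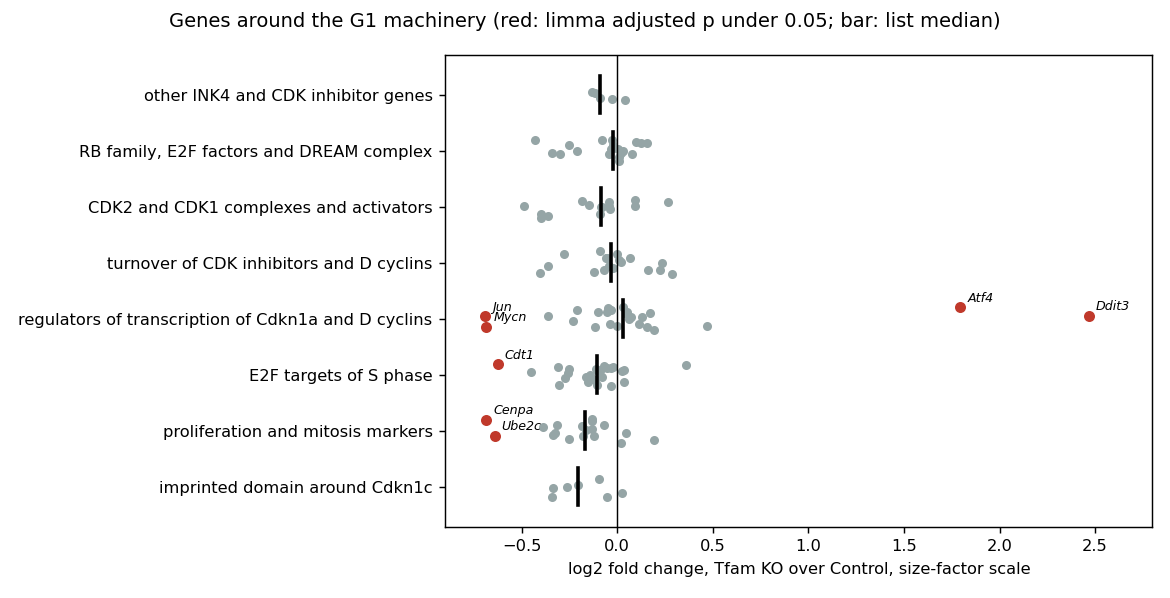
Log2 fold change (Tfam KO over Control, size-factor scale, horizontal axis) of each tested gene in 8 lists around the G1 machinery; black bars are list medians and red points have a limma adjusted p under 0.05. Most genes lie within 0.5 of 0, Ddit3 and Atf4 lie far to the right, and the medians of S phase and mitosis genes are at -0.11 and -0.17.

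Genes of S phase and mitosis, downstream of the retinoblastoma protein, mostly had log2 fold changes below 0 with size factors, and few passed. Of 25 S phase targets of E2F, 21 had a log2 fold change below 0 and 1, the licensing factor Cdt1, was lower (11.7 ± 0.659 to 7.24 ± 0.498 FPKM, limma adjusted p = 0.0111). Of 18 proliferation and mitosis markers, 15 were below 0 and 2 were lower, the centromere histone Cenpa and the ubiquitin enzyme Ube2c (limma adjusted p = 0.0135 and 0.0167). As deposited 0 of either list passed in limma, while limma-voom called 2 lower in each; with size factors 4 and 6 were lower and 0 higher at an unadjusted p under 0.05. The list medians were -0.11 and -0.17 with size factors, beside 0.00 for all tested genes. As deposited they were above 0, at 0.21 and 0.15, beside 0.28 for all tested genes. The summed mitosis markers ran from 388 to 444 FPKM in KO libraries and from 504 to 514 FPKM in controls. With Ube2c left out the groups overlapped, at 272 to 348 FPKM in KO libraries and 331 to 357 FPKM in controls.

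Cdkn1c lies on chromosome 7 (GRCm38.p6, chr7:143458339-143461059) in an imprinted domain controlled by the noncoding RNA Kcnq1ot1, and its neighbours showed no call. Of 7 tested of 12 listed, 0 passed in limma on either scale or in limma-voom (unadjusted p under 0.05 for 1, which was lower). The list's median was -0.21 with size factors. Kcnq1ot1 averaged 1.55 ± 0.460 FPKM over the controls, against 0.999 ± 0.157 FPKM over the KO pools (log2 fold change -0.34, 95% interval -0.70 to 0.02).

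The genes whose levels followed these patterns most closely over the 6 libraries were, for Cdkn1a, Avil, Mkrn2 and Ppp1r16b, with Pearson r of 0.996, 0.995 and 0.995. For Ccnd2 they were Polr1e, Sel1l and Agpat9 (r of 0.998, 0.996 and 0.995), and for Cdkn1c they were Cgnl1, Sox3 and Kalrn (0.989, 0.988 and 0.986). All these values share the same 6 libraries and the split into 2 groups, and 354, 391 and 244 of 10065 other genes had an r over 0.9 with Cdkn1a, Ccnd2 and Cdkn1c.

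The cell type lists checked the tissue and show what moved beside the members. Among the cardiomyocyte markers, the ventricular light chain Myl2 had the highest mean, at 6386 FPKM over the controls, against 5216 FPKM over the KO pools. Of 10 such markers 1 rose, the natriuretic peptide gene Nppa (log2 fold change 1.23), and 1, Nkx2-5, was lower with size factors but not as deposited. Limma-voom called 1 higher and 2 lower, Nkx2-5 and Myh7. The list summed to between 12275 and 20841 FPKM in KO libraries, against 15691 to 20052 FPKM in controls.

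Smooth muscle markers summed to 251 to 296 FPKM in KO libraries, against 421 to 468 FPKM in controls, without overlap, and the same held without Acta2 (46.5 to 55.3 FPKM, against 59.99 to 91.1 FPKM). Of 5 tested, 2 were lower with size factors, Acta2, the most abundant, and Cnn1 (limma adjusted p = 0.0109 and 0.0107), 0 as deposited and 3 with limma-voom. With size factors 4 of the 5 had a log2 fold change below 0, and Mylk was at 0.13 (limma adjusted p = 0.685). Myh11 was under 1 FPKM in every library and was not tested. Endothelial markers summed to 159 to 175 FPKM in KO libraries, against 179 to 193 FPKM in controls, without overlap. With Plvap left out the sums were 143 to 153 FPKM in KO libraries and overlapped the controls, at 150 to 154 FPKM. Of 10, Plvap was lower with size factors (limma adjusted p = 0.0161), and Emcn was higher as deposited (log2 fold change 0.68, limma adjusted p = 0.0475), against 0.35 with size factors (limma adjusted p = 0.137). The most abundant, Cdh5, had a log2 fold change of -0.24 (limma adjusted p = 0.337).

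Of 9 fibroblast and valve markers, 3 were higher as deposited, and 0 passed with size factors in limma or with limma-voom (unadjusted p under 0.05 for 3, all higher). They summed to 413 to 466 FPKM in KO libraries, against 305 to 482 FPKM in controls. Col3a1 had the highest mean over the 6 libraries, and Col1a1 the highest over the controls. Of 8 epicardial markers, led by Upk3b, 0 passed in limma on either scale or with limma-voom (unadjusted p under 0.05 for 1, which was higher), and the sums were 46.7 to 55.4 FPKM in KO libraries, against 41.7 to 56.3 FPKM in controls. Of 10 macrophage markers 9 were tested, with sums of 19.3 to 23.3 FPKM in KO libraries, against 21.1 to 25.5 FPKM in controls. The most abundant, Lyz2, was lower with size factors (limma adjusted p = 0.0204), and Cx3cr1 was higher as deposited (log2 fold change 0.76, limma adjusted p = 0.0102), against 0.54 with size factors (limma adjusted p = 0.195).

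Erythroid sums, led by Hbb-y, ran from 3353 to 10205 FPKM in KO libraries, against 6270 to 12990 FPKM in controls. Of 10 listed, 6 were tested and 0 passed in limma on either scale or with limma-voom (unadjusted p under 0.05 for 1, which was lower), and Hba-a1 and Hbb-b2 were listed at 0 throughout. The skeletal muscle and epithelial lists, led by Tnnt3 and Krt8, summed to at most 6.38 and 3.57 FPKM in any library, with Myf5, Sftpc and Foxa2 listed at 0 throughout. The part of these cell types in the changes of Cdkn1a, Cdkn1c and Ccnd2 was not tested.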

How the data were processed

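Each of the 6 tables gave a gene symbol and a value. The deposited values were log2(FPKM + 1). The unit FPKM is in the file names, and the log2 scale was worked out from the values, which fall on steps of whole reads once log2 is undone. Listed in the submitters' processing notes, without their roles, are HTSeq 0.5.3, TopHat2 2.0.7, CASAVA 1.8.2 and the mm9 build. How FPKM was computed, with which annotation and strand setting, is not given in the sources used here.

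Library totals were recovered from genes with 1 transcript length in GENCODE vM21. With these, all 17876 genes above 0 gave whole reads (tolerance 1e-05 of a read, widening with the count), up to 1 multiplier for each gene that all libraries share. FPKM was divided by median-of-ratios size factors, because the libraries were not on a common scale. limma 3.58.1 (R 4.3.3, variance trend, group as only term, two-sided, Benjamini-Hochberg) was run on log2(FPKM / size factor + 1) of the 10807 genes whose mean reached 1 FPKM. Ratios within a library were compared with exact permutation tests (SciPy 1.17.1). Permutation p-values rest on the spread between pools of 5 hearts. Except in the deposited-scale fit, limma p-values combine each gene's own spread between these pools with a variance shared over genes. In the deposited-scale fit the SE of the 9 tested members was nearly the same, 0.220 to 0.230. Its p-values rest on a variance shared over genes, not on each gene's own spread between pools.

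The members and lists were chosen with earlier results of these data known. The rule for named genes took the 10 members, list genes called on both scales (at most 4 a list), the most abundant gene of each cell type list (1 list is not reported here), the 3 genes most correlated with Cdkn1a, Ccnd2 and Cdkn1c, and Tfam. Other genes named in the text, and genes left out of list sums, were chosen after their values were seen. RefSeq promoter windows (GRCm38.p6) matched 7 of the 10 members. Alternatives were the deposited scale, equal FPKM sums without Rn45s, a pseudocount of 0.1, no filter or a mean of 5 FPKM, no variance trend, limma-voom on recovered reads, a replicate block and each library left out.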

Additional observations from a re-analysis of the deposited data

How the results depend on the processing

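Of 125 values of the 9 tested members under 14 alternatives, 122 kept their direction and their side of the threshold. Ccnd2 lost its call without Control replicate 3 (log2 fold change 0.65, limma adjusted p = 0.0616), which left 1 member higher, against 2 under every other alternative, so the members called higher ranged from 1 to 2 over libraries left out and 1 was lower throughout. Cdk4, not called, had a log2 fold change of -0.11 without Tfam KO replicate 1 and -0.09 without Control replicate 2, within -0.11 to 0.12 over libraries left out. Over all tested genes, 215 were higher and 281 lower with size factors and 671 and 125 as deposited, where 84.3% of calls were higher against 43.3%. The number lower was 144 with no filter on low values and 460 with limma-voom. With 1 library left out, 133 to 213 genes were higher and 127 to 361 lower; the number higher was 133 without Control replicate 3, and the number lower was 127 without it, 151 without Control replicate 1 and 162 without Tfam KO replicate 3. Of the pathway genes, 2 were higher and 5 lower with size factors, 0 lower as deposited, 3 lower with no filter, and 1 to 4 lower with 1 library left out (3 without Tfam KO replicate 3; 1 without any one of Tfam KO replicate 2 and Control replicates 1 and 3). The cause was not tested. All 72 values of the 9 family shares and ratios under alternatives moved by less than the larger group SD. For a library left out and for the replicate block this outcome was fixed in advance. Dropping 1 of 3 libraries cannot shift a group mean by a full SD. Only adding 1 FPKM to each value could have moved a result further. The small log2 difference of Cdk6 over Cdk4, 0.11, was -0.02 without Control replicate 1. The log2 ratio of Cdkn2c to Cdkn2d was planned but not computed, since Cdkn2d had 0 reads in 1 library.

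The data did not settle whether the replicate numbers pair the libraries. Correlations of deviations were 0.36, 0.07 and 0.16 for numbers 1, 2 and 3. Tfam KO replicate 1 correlated best with the control of its own number. So did Tfam KO replicate 2, but nearly as well with Control replicate 1 (0.05). Tfam KO replicate 3 correlated best with Control replicate 2 (0.25). A replicate block gave 278 genes higher and 421 lower and the same 3 members called. It left the family differences at the same values by construction, such as -1.12 for the log2 ratio of inhibitors to D cyclins. Depth limits Cdkn2d, with at most 4 reads a library, and Cdkn2c, with at most 60.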
